A study of Homo sapiens with 47 samples.

Results

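The HA ChIP-seq peaks of dCas9-VP16(10x) were compared genome-wide between Ishikawa cells that received gRNAs for estrogen receptor bound sites (ERBSs) and cells that received gRNAs for regions adjacent to ERBSs. The members were chosen by their labels as the HA peak lists of this construct, and they are 5 of the 47 samples of the series, with 2 lists for ERBSs, 2 for adjacent regions and 1 for the IL1RN promoter as a further reference. Ishikawa is a human endometrial adenocarcinoma line, here kept in hormone-depleted media. All 5 groups of cells were transfected with FuGENE HD with the same dCas9-VP16(10x) plasmid, were selected with puromycin and G418, and differed in their gRNA plasmids. The ERBS gRNAs were 48 guides for 12 ERBSs (4 per site, Pools 1, 2 and 3 together) near MMP17, CISH, FHL2 and HES2. The Adjacent gRNAs were 24 guides for 6 regions of low DNase I hypersensitivity near MMP17, CISH and FHL2. The labels number the replicates without saying that they came from separate transfections, so p-values measure the spread between samples, which may be technical.

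dCas9 is a Cas9 protein without nuclease activity that a gRNA brings to DNA, where the target must be followed by an NGG motif (the PAM). Pairing starts at the PAM, and the gRNA bases next to it, called the seed, carry most of the specificity, so that sites that match the seed alone can be bound for short times and crosslinked. VP16 is an acidic viral activation domain that recruits coactivators, here in tandem copies, and the HA tag on the fusion is the epitope that the antibody pulls down. Dense ChIP signal is also known at open, GC-rich promoters of highly transcribed genes, whatever the antibody.

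All 88 gRNAs examined are 19 bases long and were found next to an NGG on hg19 within 5 kb of a target region of the study. These comprise the 48 ERBS gRNAs, the 24 Adjacent gRNAs and 16 gRNAs for the promoters of the 4 target genes, which were in none of these 5 libraries. The 4 gRNAs below are shown because their 10-base seeds, in capitals, recurred at HA peaks that only 1 pool of gRNAs gave. Coordinates are on hg19 and cover the gRNA and its PAM.
mmp17_A_354 (Adjacent, MMP17-A, chr12:132279186-132279207, plus strand): ggaacgctgAGGGTGGAGA
fhl2_A_100 (Adjacent, FHL2-A, chr2:106029173-106029194, plus strand): gcagcgtcaAGGAAGGATG
MMP17peak3_472 (ERBS, MMP17-3, chr12:132345368-132345389, plus strand): ggatgcatgAGCCCGGCTC
MMP17peak1_154 (ERBS, MMP17-1, chr12:132284741-132284762, plus strand): gggtccggcCACCTGGAGT

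The total read depth of the HA libraries is not given in the peak lists. In the deposited table of normalized signal, the columns of these 5 lists summed to between 1729 and 38238 reads over 23 target regions, with the smallest step of a column taken as 1 read, and the column with the highest sum is the one not marked as freed of duplicates. The 2 ERBS columns differed by less than the sampling noise across 11 regions outside their targets (chi-square 0.503 on 10 degrees of freedom), whereas the 2 Adjacent columns differed across 17 such regions (chi-square 65.5 on 16 degrees of freedom, p = 6.15e-08). The ERBS lists were therefore counted as 1 sample in the test of enrichment. However, 1 ERBS column is named for replicate 2, and the name of the other does not say which ERBS list it belongs to. The likeness of the columns may thus not concern the replicate 1 list. Across 2895 regions, the log2 enrichment of the ERBS lists had r = 0.37 with each other, and that of the Adjacent lists r = 0.58. The summits of the ERBS lists were also no closer to each other (15.3% of paired summits within 10 bp) than those of the replicate 2 lists of both pools (15.3%). The promoters of 8 of 8 epithelial markers carried H3K27ac in both libraries with IL1RN gRNAs, and those of 0 and 1 (COL1A1) of 6 markers of stroma, leukocytes and endothelium did, with VIM and the leukocyte markers at 0.

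The number of peaks differed more between replicates than between gRNA pools. With ERBS gRNAs, replicate 1 had 6184 peaks and replicate 2 had 30740, or 4.97 times as many. With Adjacent gRNAs, replicate 1 had 4785 peaks and replicate 2 had 25109, or 5.25 times as many. The IL1RN list had 8149. Within replicate 1 and within replicate 2, the ERBS list was 1.29 and 1.22 times as long as the Adjacent list, and 2 lists against 2 cannot give an exact two-sided p below 0.333.

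Width and enrichment followed the replicate as well. The median peak width was 266 and 464 bp in the ERBS lists, 276 and 529 bp in the Adjacent lists and 314 bp in the IL1RN list. The median fold enrichment over background was 7.52 and 12.95 with ERBS gRNAs, 7.47 and 12.6 with Adjacent gRNAs and 8.80 with IL1RN gRNAs. Cut to the 4785 peaks of highest significance in each list, the median widths were 283 and 903 bp (ERBS), 276 and 880 bp (Adjacent) and 365 bp (IL1RN).

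Most peaks of every list were at promoters, taken as 1 kb on each side of a transcription start site (TSS). Promoters held 76.1% and 61.2% of peaks in the ERBS lists, 77.1% and 67.9% in the Adjacent lists and 81.4% in the IL1RN list. In the lists of equal length these shares were 75.9% and 81.4%, 77.1% and 82.5%, and 82.6%. At equal length, ERBS and Adjacent lists of the same replicate number thus differed by less in promoter share than the replicates of a pool did.

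At the targeted loci each pool gave its highest enrichment at its own targets. Adjacent regions had peaks with Adjacent gRNAs alone, whereas 3 and 8 of the 12 ERBSs also had a weaker peak in the Adjacent lists and 5 in the IL1RN list. Each of the 12 ERBSs had a peak in both ERBS lists and each of the 6 adjacent regions had a peak in both Adjacent lists, with widths of 477 to 1995 bp. At ERBSs, enrichment ranged from 23.8 to 98.6 in replicate 1 (median 42.6) and from 25.4 to 165 in replicate 2 (median 105). At adjacent regions it ranged from 11.5 to 87.3 (median 42.8) and from 18.2 to 238 (median 57.1). All 12 ERBSs were among the 20 strongest peaks of ERBS replicate 1 and 9 of 12 among those of replicate 2, against 5 of 6 and 3 of 6 adjacent regions in their own lists.

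**Figure D1:**
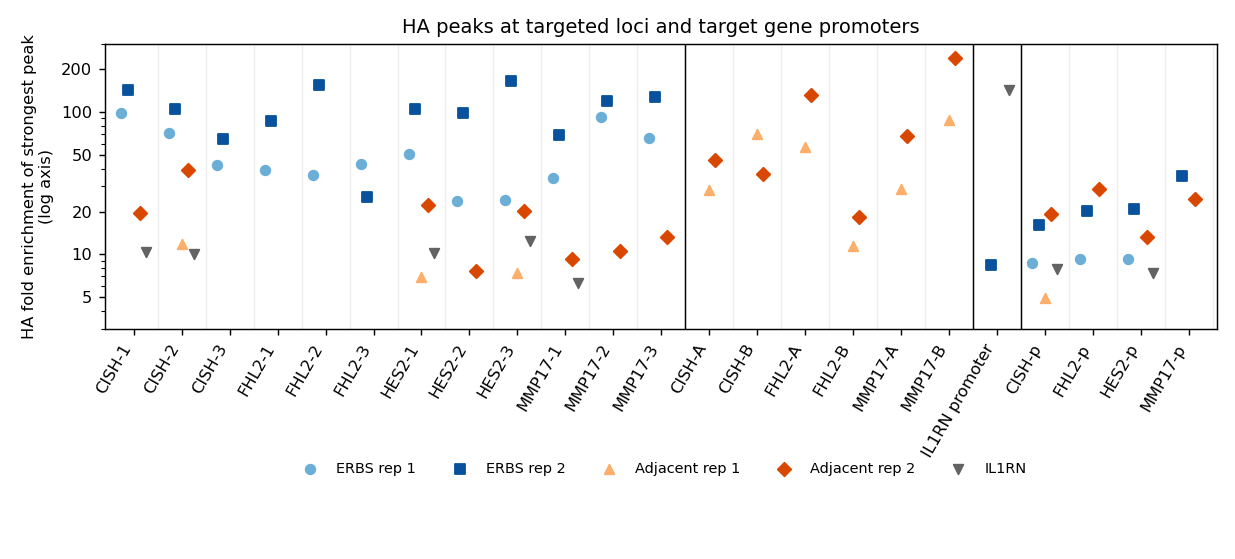
HA fold enrichment (log axis) of the strongest peak at each ERBS, adjacent region and promoter (IL1RN and the 4 target genes), with 1 symbol per list and no symbol where a list has no peak. At ERBSs the ERBS lists (23.8 to 165) lie above the other lists, and at adjacent regions the Adjacent lists alone (11.5 to 238) have peaks.

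MMP17 encodes a membrane-anchored matrix metalloproteinase. Its intergenic ERBSs MMP17-1 and MMP17-2 had an enrichment of 34.3 and 69.4, and of 91.4 and 119, in the ERBS lists, and MMP17-3, in intron 1 of ENSG00000256955, had 66.0 and 127. With Adjacent gRNAs the same 3 sites had peaks in replicate 2 only, of 9.34, 10.6 and 13.3. The first of these, at MMP17-1, started at chr12:132285263 and did not reach the gRNAs there, which end at 132284907. The nearby adjacent regions MMP17-A, in intron 15 of SFSWAP, and MMP17-B, in intergenic sequence, reached 28.7 and 68.3, and 87.3 and 238, in the Adjacent lists. MMP17-B was the strongest peak of both Adjacent lists, and neither region had a peak with ERBS or IL1RN gRNAs.

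CISH encodes a suppressor of cytokine signaling. CISH-1 had an enrichment of 98.6 and 142, CISH-2 of 71.2 and 105, and CISH-3 of 42.3 and 64.6 in the ERBS lists. CISH-1 also had a peak of 19.4 in Adjacent replicate 2 and of 10.35 with IL1RN gRNAs. CISH-2 had peaks of 11.9 and 39.3 with Adjacent gRNAs and of 10.0 with IL1RN gRNAs, whereas CISH-3 had none in these lists. CISH-A, in intron 1 of CISH, had 28.2 and 45.9, and CISH-B, in exon 11 of HEMK1, had 70.5 and 36.9 in the Adjacent lists. CISH-B is thus the adjacent region that was higher in replicate 1 than in replicate 2.

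FHL2 encodes a LIM domain scaffold protein. FHL2-1 and FHL2-2, both in intron 1 of FHL2, had an enrichment of 39.1 and 86.8, and of 36.0 and 155, and the intergenic FHL2-3 had 43.0 and 25.4. FHL2-A and FHL2-B, in the same intron, had 57.0 and 132, and 11.5 and 18.2, in the Adjacent lists. FHL2-B was the weakest targeted region in its own lists (rank 316 of 4785 and 5193 of 25109), and FHL2-3 was the ERBS of lowest rank in ERBS replicate 2 (3082 of 30740), although it ranked 6 in replicate 1. None of these 5 regions had a peak with gRNAs of another pool.

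HES2 encodes a basic helix-loop-helix repressor, and its ERBSs lie in intron 1 of HES2 (HES2-1) and in introns 2 and 7 of ESPN (HES2-2 and HES2-3). HES2-1 had an enrichment of 50.8 and 104, HES2-2 of 23.8 and 98.7, and HES2-3 of 24.2 and 165 in the ERBS lists. HES2-1 and HES2-3 had peaks in all 3 other lists, of 6.92, 22.1 and 10.3, and of 7.37, 20.2 and 12.4. At HES2-3 the lower ERBS value was 1.199 times the highest other value, which was the narrowest margin of any ERBS locus. These other peaks at HES2-3 started at chr1:6507777 or beyond, past its gRNAs, which end at 6507507. The margin at HES2-3 thus compares different places in the locus. The widest margin among ERBSs with another peak was 8.62 times at MMP17-2.

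In all 12 ERBSs both ERBS lists were above each other list, where no peak was counted as below, while the same held for 5.23% of the 5676 off-locus regions with a peak in both ERBS lists. In all 6 adjacent regions both Adjacent lists were above each other list, against 2.51% of the 4458 off-locus regions with a peak in both Adjacent lists. Off-locus means more than 5 kb from each of the 19 targeted loci. The gRNAs were designed for these loci, so the comparison describes targeting and is no finding on their chromatin.

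Summits fell on the gRNAs. The summit was inside the span of the 4 gRNAs at 11 and 12 of 12 ERBSs and at 5 and 5 of 6 adjacent regions. The median distance from the summit to the middle of the nearest gRNA was 6.0 and 7.0 bp at ERBSs and 20.5 and 20 bp at adjacent regions. The gRNAs of ERBSs were closer together (median span 234.5 bp) than those of adjacent regions (431 bp), and the part of this difference in the distances was not tested. The peaks covered 48 of 48 ERBS gRNAs in both lists, but 21 and 23 of 24 Adjacent gRNAs.

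The promoters of the target genes, to which none of these gRNAs was directed, also had peaks in both pools. In replicate 2, the strongest peaks that overlapped the 4 promoter regions had an enrichment of 16.1 to 35.5 with ERBS gRNAs and of 13.1 to 28.7 with Adjacent gRNAs. The FHL2 promoter was higher with Adjacent gRNAs (28.7 against 20.1), and the peak that reached into the MMP17 promoter region was higher with ERBS gRNAs (35.5 against 24.4). Its summits, at chr12:132315110 and 132315177, lay past the end of that region at 132314500. In replicate 1, peaks were found at 3 of 4 promoters (8.76 to 9.35) with ERBS gRNAs and at the CISH promoter alone (4.96) with Adjacent gRNAs. The ranges of both pools overlapped in replicate 2, and they also overlapped those of the targets, since FHL2-3 had 25.4 with ERBS gRNAs and FHL2-B had 18.2 with Adjacent gRNAs. With ERBS gRNAs the overlap with the targets rests on the MMP17 peak, since the next highest promoter, that of HES2, had 20.7. The IL1RN promoter had a peak of 143 in its own list, the strongest there, and of 8.46 in ERBS replicate 2.

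Away from the targeted loci, the HA peaks of both pools were largely the same places. Peaks that overlapped by 1 bp were joined into 31958 regions, of which 21886 (68.5%) had a peak in an ERBS and an Adjacent list. A further 7639 (23.9%) had a peak in an ERBS list and none in an Adjacent list, and 2426 (7.59%) had the reverse. Of these, 7403 (96.9%) came from ERBS replicate 2 alone and 2344 (96.6%) from Adjacent replicate 2 alone. Counted on regions with a peak in both replicates, 98.8% of the 4468 Adjacent regions were overlapped by an ERBS list and 96.9% of the 5691 ERBS regions by an Adjacent list. The IL1RN list, from gRNAs of neither pool, overlapped 81.8% and 75.8% of them.

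**Figure D2:**
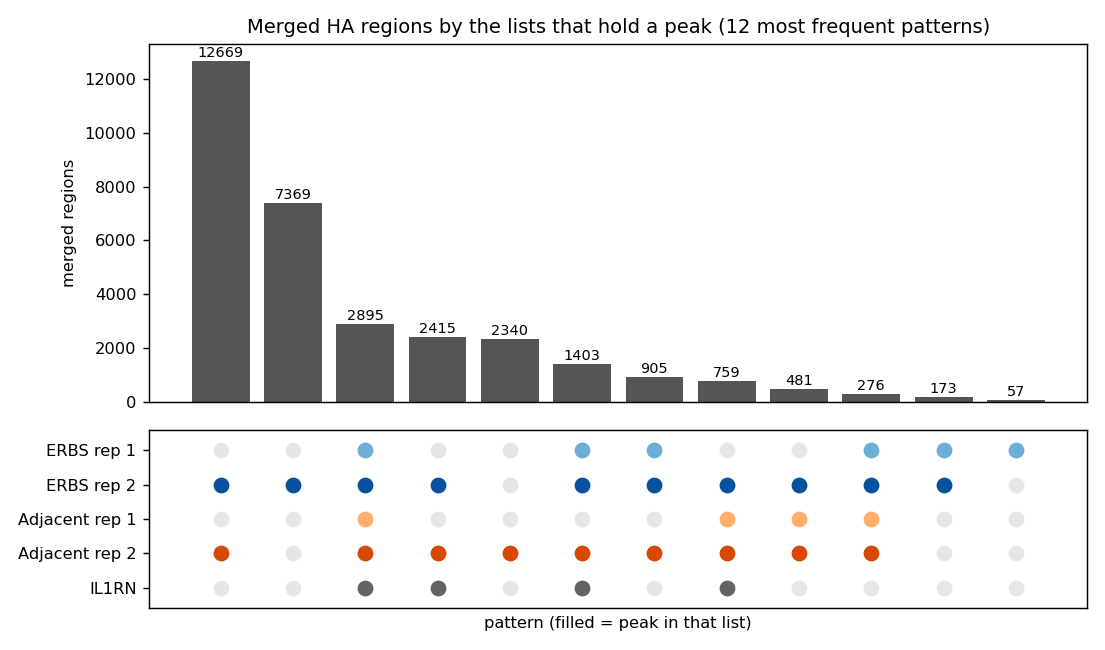
Number of merged HA regions for the 12 most frequent combinations of lists with a peak, with filled circles under each bar for the lists that hold one. The largest combination is both replicate 2 lists without the others (12669 regions), and 2895 regions have a peak in all 5 lists.

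These shares depend on the longer lists. Without ERBS replicate 2, 70.9% of the Adjacent regions were overlapped by the other ERBS list, and without Adjacent replicate 2, 56.2% of the ERBS regions were overlapped by the other Adjacent list. In lists of 4785 peaks each, 65.4% of the peaks of ERBS replicate 2 overlapped Adjacent replicate 2 and 63.7% of those of ERBS replicate 1 overlapped ERBS replicate 2. In the same lists, 61.9% of Adjacent replicate 1 overlapped Adjacent replicate 2, and 57.0% of ERBS replicate 1 overlapped Adjacent replicate 1. Lists of the same pool therefore shared no larger part of their strongest peaks than the replicate 2 lists of different pools did. Those of the same pool, however, also differ in replicate number. Across replicate numbers, 59.4% of ERBS replicate 1 overlapped Adjacent replicate 2, and 55.2% of Adjacent replicate 1 overlapped ERBS replicate 2. Against the same replicate 2 list, the list of its own pool thus shared the larger part.

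Off-locus regions with a peak in both lists of a pool and in none of the other 3 lists were few. They numbered 49 for Adjacent gRNAs (1.097% of the regions in both Adjacent lists) and 169 for ERBS gRNAs (2.97% of those in both ERBS lists), and are called Adjacent-only and ERBS-only regions here. Each count moved when a library was left out. The Adjacent-only count was 532 without ERBS replicate 2, 2388 without Adjacent replicate 1 and 82 without Adjacent replicate 2, and the ERBS-only count was 7532 without ERBS replicate 1 and 1087 without Adjacent replicate 2. In bulk chromatin, a peak from few cells with dense occupancy and a peak from many cells with sparse occupancy cannot be told apart.

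Adjacent-only regions were distal. Promoters held 7 of 49 (14.3%, 95% Wilson interval 7.10 to 26.7%) and introns 53.1%, and the median distance to the nearest TSS was 8025 bp. ERBS-only regions were at promoters in 60 of 169 (35.5%, 28.7 to 43.0%) and in introns in 37.3%, with a median distance of 2946 bp. The off-locus regions in all 5 lists were at promoters in 2382 of 2891 (82.4%) at a median of 121 bp, and over all 31922 off-locus regions 59.1% were at promoters. Regions of a single ERBS or Adjacent list were at promoters in 25.9 to 38.9%, at median distances of 2576 to 6393 bp. A promoter share below that of all regions was thus not particular to Adjacent-only and ERBS-only regions. The median GC content near the summit was 58.7% in Adjacent-only, 59.7% in ERBS-only and 68.7% in regions of all 5 lists.

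The Adjacent-only regions were also the stronger of both classes. Their median enrichment was 11.4 and 19.7 in the Adjacent lists (highest 32.9 and 66.2), against 7.75 and 13.7 for ERBS-only regions in the ERBS lists (highest 23.6 and 75.2). Over all off-locus regions the medians were 7.52 and 12.8 in the Adjacent lists and 7.65 and 13.2 in the ERBS lists. ERBS-only regions were thus near the list medians, and Adjacent-only regions were above them. The median merged width was 426 bp in Adjacent-only and 370 bp in ERBS-only regions. It was 1015 bp in regions of all 5 lists and 208 to 282 bp in regions of a single list. A merged region spans the peaks of all its lists, so these widths follow in part from how the classes were made.

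The classes were then compared by sequence. A match of the 10 bases of a gRNA next to an NGG was looked for on both strands within 100 bp of the summit. Of the 49 Adjacent-only regions, 40 (81.6%, 68.6 to 90.0%) held the seed of an Adjacent gRNA and 0 that of an ERBS gRNA, while Adjacent seeds were found in 0.786% of all off-locus regions. Of the 169 ERBS-only regions, 19 (11.2%, 7.32 to 16.9%) held the seed of an ERBS gRNA and 0 that of an Adjacent gRNA, while ERBS seeds were found in 0.993% of all off-locus regions. Seeds of the 16 promoter gRNAs were in 1 and 0 regions of these classes and in 0.160% of all. The seed shares of regions in all 5 lists were 0.588% for Adjacent and 0.969% for ERBS gRNAs, near those of all regions.

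**Figure D3:**
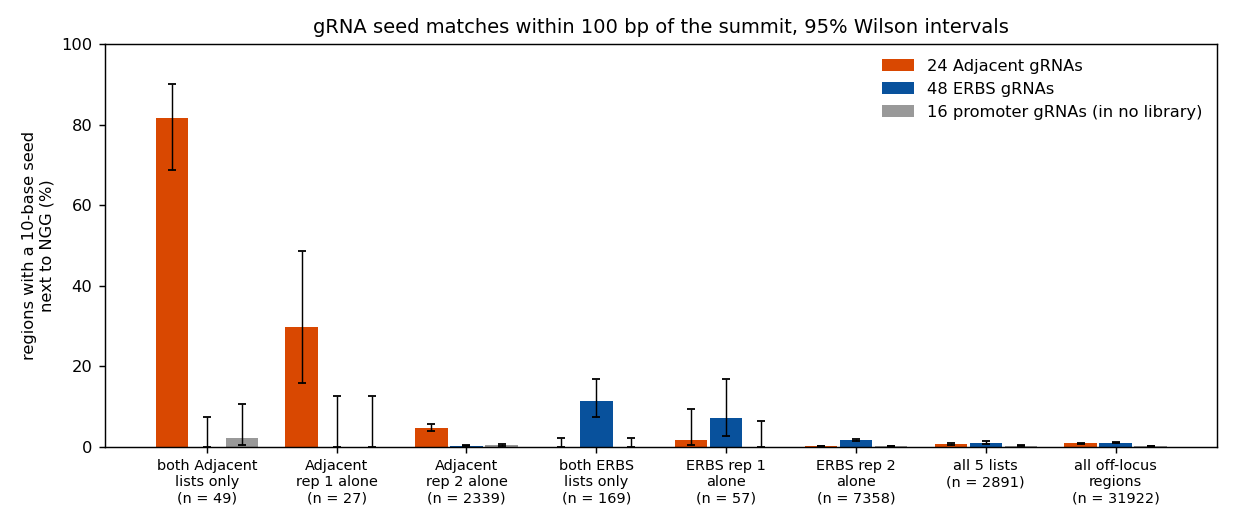
Percent of off-locus regions with a 10-base gRNA seed next to an NGG within 100 bp of the summit, by the lists that hold a peak, for 24 Adjacent, 48 ERBS and 16 promoter gRNAs; whiskers are 95% Wilson intervals, which cover counting error only. Adjacent seeds reach 81.6% in regions of both Adjacent lists only, and ERBS seeds 11.2% in regions of both ERBS lists only.

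A gradient with replication was seen in each pool. The share with an Adjacent seed was 29.6% of the 27 regions of Adjacent replicate 1 alone and 4.75% of the 2339 of Adjacent replicate 2 alone, and the share with an ERBS seed was 7.02% of the 57 regions of ERBS replicate 1 alone and 1.70% of the 7358 of ERBS replicate 2 alone. Without Adjacent replicate 1, 151 of 2388 Adjacent-only regions (6.32%) held an Adjacent seed, and without ERBS replicate 2, 53 of 532 (9.96%) did. Without ERBS replicate 1, 143 of 7532 ERBS-only regions (1.90%) held an ERBS seed, and without Adjacent replicate 2, 40 of 1087 (3.68%) did. In these cases the regions with a seed became more numerous and their share fell. Without Adjacent replicate 2, 52 of 82 Adjacent-only regions (63.4%) held an Adjacent seed. Without ERBS replicate 2, 27 of 247 ERBS-only regions (10.9%) held an ERBS seed, near the share with both ERBS lists. For ERBS seeds, a rise of the share with replication was thus not clear.

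Few gRNAs accounted for the matches. Of the 24 Adjacent gRNAs, mmp17_A_354 matched 26 of the 40 Adjacent-only regions and fhl2_A_100 matched 11, and cish_B_524, mmp17_A_422 and fhl2_B_201 matched 1 each. Of the 48 ERBS gRNAs, MMP17peak3_472 matched 6 of the 19 ERBS-only regions, MMP17peak1_154 matched 5 and CISHpeak2_550 matched 2, and 6 others matched 1 each. The ERBS gRNAs among them belong to MMP17-1, MMP17-3, CISH-1, CISH-2, FHL2-1 and HES2-1, and none to the other 6 ERBSs. Regions that share a gRNA are not independent of each other.

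The matched site was near the summit and short. Its middle was at a median of 9.0 bp from the summit in Adjacent-only regions (29 of 40 within 20 bp) and of 10.0 bp in ERBS-only regions (12 of 19). The unbroken match next to the PAM was 10 to 13 bases long with a median of 11, and the whole 19 bases had a median of 6 mismatches (3 to 7 in Adjacent-only and 3 to 8 in ERBS-only regions).

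Regions with a seed were the more enriched ones. In Adjacent-only regions the median was 12.1 and 24.8 with a seed (n = 40) and 9.71 and 12.3 without (n = 9). In ERBS-only regions it was 12.6 and 35.1 with a seed (n = 19) and 7.38 and 13.04 without (n = 150). Ranked by mean enrichment, the 10 strongest Adjacent-only regions all held an Adjacent seed and 9 of the 10 strongest ERBS-only regions held an ERBS seed.

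The strongest Adjacent-only region was in intron 3 of TINAGL1, which encodes a secreted matricellular protein, with an enrichment of 28.4 and 65.9 in the Adjacent lists. It was followed by intron 1 of EPHB4, a receptor tyrosine kinase for ephrins (19.9 and 66.2), and intron 1 of SEZ6, a neuronal membrane protein (32.9 and 29.4). These 3 were within the range of the targeted adjacent regions themselves (11.5 to 238). Weaker members were in intron 1 of RASD2, a small GTPase (14.6 and 40.9), intron 2 of SDK2, a cell adhesion protein (14.0 and 36.9), intron 4 of GRM4, a glutamate receptor (16.3 and 32.7), and exon 16 of CDK18, a kinase (11.2 and 36.8). The other 3 of the 10 were 2 intergenic regions on chromosomes 3 and 7 (17.0 and 43.3, and 17.9 and 38.3) and intron 5 of SPIDR, a DNA repair scaffold (10.9 and 40.9). None of the 10 was at a promoter.

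The genomic sites at these summits are shown with the run of bases that matches the gRNA up to the PAM in capitals and the NGG at the 3′ end in lower case. They are from 6 of the 10 strongest Adjacent-only regions, all 6 within genes, and show what the gRNA and the site share.
fhl2_A_100 seed in TINAGL1 intron 3 (chr1:32046129-32046150, plus strand): gagagggaAAGGAAGGATGagg
fhl2_A_100 seed in SEZ6 intron 1 (chr17:27320528-27320549, plus strand): gctgggaCAAGGAAGGATGtgg
fhl2_A_100 seed in CDK18 exon 16 (chr1:205501504-205501525, minus strand): gggctgggAAGGAAGGATGggg
mmp17_A_354 seed in EPHB4 intron 1 (chr7:100422991-100423012, minus strand): gaacaatgGAGGGTGGAGAcgg
mmp17_A_354 seed in RASD2 intron 1 (chr22:35940398-35940419, minus strand): agagagagGAGGGTGGAGAggg
mmp17_A_354 seed in SDK2 intron 2 (chr17:71477441-71477462, plus strand): gggaacCTGAGGGTGGAGAggg
Counted from 1 at the 5′ end of the gRNA, the SEZ6 site differs from fhl2_A_100 by A3T, C5G and T7A, and the SDK2 site from mmp17_A_354 by A3G, C5A and G6C. The other 4 sites shown have 5 or 6 mismatches, all in the first 8 bases. The summits were 3 to 16 bp from the middle of these 6 sites.

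Among ERBS-only regions the strongest was at the promoter of PITPNM3, a phosphatidylinositol transfer protein, 393 bp from the TSS (17.1 and 75.2 in the ERBS lists). The promoter of MFAP2, a microfibril component, had 16.1 and 57.5, and a region in exon 1 of SOX4, a transcription factor, had 7.84 and 54.1. Exon 15 of NAP1L4, a histone chaperone, had 10.9 and 50.6, and the promoter of BCOR, a transcriptional corepressor, had 14.0 and 46.4. Intron 1 of PADI1, a peptidylarginine deiminase, had 23.6 and 35.6, and intron 4 of PCBP3, an RNA-binding protein, had 14.8 and 40.2. The other 3 of the 10 were in intron 21 of MICAL3, an actin-regulating monooxygenase (13.9 and 40.4), in intron 55 of PRKDC, the catalytic subunit of the DNA-dependent protein kinase (9.76 and 43.1), and in intergenic sequence on chromosome 12 (15.9 and 35.9). In contrast to the 10 Adjacent-only regions, 4 of these 10 were within 1 kb of a TSS, and the MICAL3 region was the one without a seed.

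Sites of 6 of these 10 regions are shown in the same way, chosen to show 4 different gRNAs.
MMP17peak3_472 seed at the PITPNM3 promoter (chr17:6460254-6460275, plus strand): gagacccaGAGCCCGGCTCcgg
MMP17peak3_472 seed at the MFAP2 promoter (chr1:17306596-17306617, minus strand): ctcccccTGAGCCCGGCTCtgg
MMP17peak3_472 seed in SOX4 exon 1 (chr6:21596066-21596087, plus strand): ttaacttcGAGCCCGGCTCcgg
MMP17peak1_154 seed in PCBP3 intron 4 (chr21:47317229-47317250, plus strand): agtcccttCCACCTGGAGTagg
CISHpeak2_550 seed in PADI1 intron 1 (chr1:17541530-17541551, plus strand): ccaagtcTTGAAGGCAGTGggg
FHL2peak1_691 seed at the BCOR promoter (chrX:39958566-39958587, plus strand): tggtgaaGCTGGCGGGAAGggg
The 3 MMP17peak3_472 sites shown have 6 or 7 mismatches to the 19 bases of the gRNA and keep the 11 or 12 bases next to the PAM, while the site in NAP1L4, not shown, has 5 mismatches and keeps 10. The seed of MMP17peak3_472 is GC-rich, whereas those of mmp17_A_354 and fhl2_A_100 are purine-rich with a single T.

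Most genomic copies of a seed had no HA peak. The 24 Adjacent seeds occurred next to an NGG at 10903 off-locus sites, of which 107 (0.981%) and 395 (3.62%) were inside a peak of the Adjacent lists, and 24 (0.220%) and 192 (1.76%) inside a peak of the ERBS lists. The 48 ERBS seeds occurred at 14902 sites, with 134 (0.899%) and 563 (3.78%) inside a peak of the ERBS lists, and 32 (0.215%) and 346 (2.32%) inside a peak of the Adjacent lists. The promoter seeds, as a background, occurred at 3787 sites, with 27 and 159 inside a peak of the ERBS lists (0.713% and 4.20%), and 19 and 150 in the Adjacent lists (0.502% and 3.96%). For gRNAs of neither pool the lists of the same replicate number thus held like shares.

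**Figure D4:**
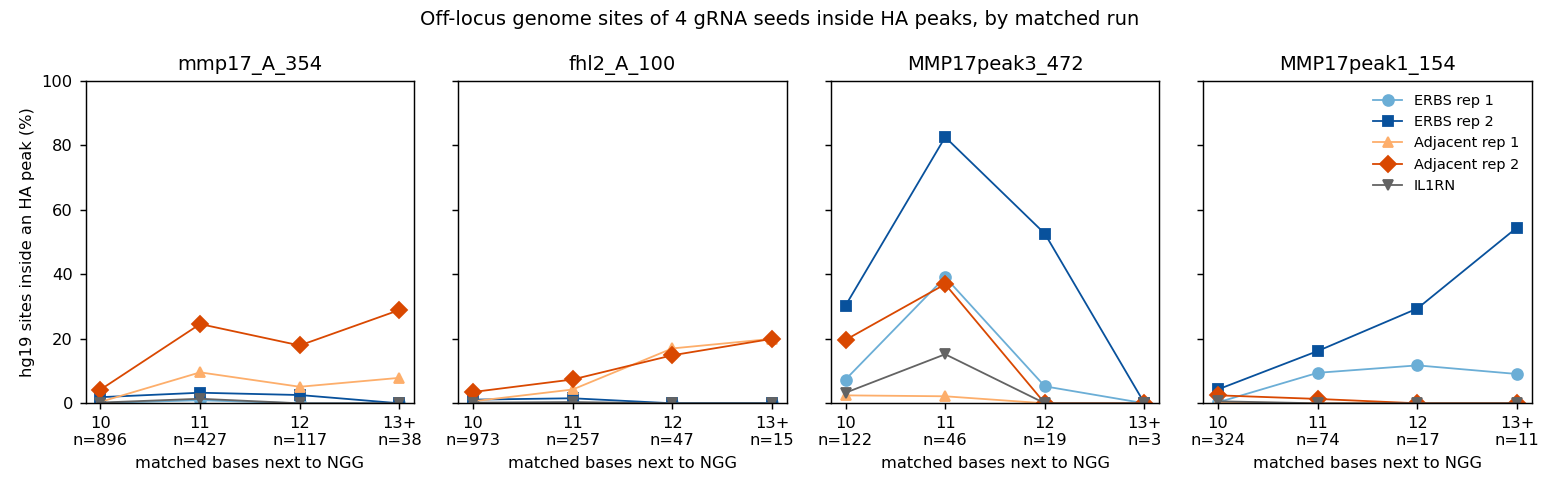
Percent of off-locus hg19 sites inside an HA peak of each list, for 4 gRNA seeds, against the number of gRNA bases matched without a break next to the NGG (10, 11, 12, and 13 or more; n is the number of sites). For mmp17_A_354, Adjacent replicate 2 holds 4.24% of sites with 10 matched bases and 24.6% of those with 11, and for MMP17peak3_472, ERBS replicate 2 holds 30.3% and 82.6%.

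For mmp17_A_354, the share of sites inside a peak differed with the length of the match, and other features of the sites were not tested. Of its 1478 off-locus sites, Adjacent replicate 2 had a peak at 38 of 896 sites with 10 matched bases, 105 of 427 with 11, 21 of 117 with 12 and 11 of 38 with 13 or more. At the same sites ERBS replicate 2 had a peak at 17, 14, 3 and 0. The share of sites in Adjacent replicate 2 was thus 4.24% with 10 bases and 17.9 to 28.9% with more, without a steady rise beyond 11 bases. Adjacent replicate 1 had a peak at 54 of the 1478 sites, and 52 of these were also in Adjacent replicate 2.

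For fhl2_A_100, 63 of 1292 sites were in Adjacent replicate 2 and 28 in Adjacent replicate 1, against 15 and 1 in the ERBS lists. With 12 matched bases, Adjacent replicates 1 and 2 had a peak at 17.0% and 14.9% of 47 sites and the ERBS lists at 0. This gRNA was the one shown for which the shorter Adjacent list held as large a share of such sites as the longer one did.

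For MMP17peak3_472, 28 and 85 of 190 sites were in the ERBS lists, and 4 and 41 in the Adjacent lists. With 11 matched bases, ERBS replicate 2 had a peak at 38 of 46 sites (82.6%), and with 12 at 10 of 19, against 17 of 46 and 0 of 19 in Adjacent replicate 2. Of its sites, 34 were within 500 bp of H3K27ac in both libraries with IL1RN gRNAs, and 33 of these were in ERBS replicate 2 and 25 in Adjacent replicate 2. At the 142 sites with H3K27ac in neither library, 41 were in ERBS replicate 2 and 7 in Adjacent replicate 2. For MMP17peak1_154, 11 and 37 of 426 sites were in the ERBS lists and 1 and 9 in the Adjacent lists.

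Sites near H3K27ac were more often inside a peak of either pool, and 94 of the 192 Adjacent seed sites in ERBS replicate 2 and 189 of the 346 ERBS seed sites in Adjacent replicate 2 were such sites. Of the Adjacent seed sites near H3K27ac in both libraries with IL1RN gRNAs, 62.6% of 163 were in Adjacent replicate 2 and 57.7% in ERBS replicate 2. Of the 10568 Adjacent seed sites with H3K27ac in neither, 2.31% were in Adjacent replicate 2 and 0.530% in ERBS replicate 2. Of the ERBS seed sites near H3K27ac, 74.1% of 309 were in ERBS replicate 2 and 61.2% in Adjacent replicate 2, and of the 14324 without it 1.51% and 0.426%. Within a list the share near H3K27ac was therefore many times that elsewhere, and the pools differed by a larger ratio where H3K27ac was absent.

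Enrichment was compared in limma over the 2895 regions with a peak in all 5 lists, on log2 values centred on the median of each list. With an adjusted p (Benjamini-Hochberg) of 0.05, 16 regions (0.553%) were higher with ERBS gRNAs and 9 (0.311%) with Adjacent gRNAs, with log2 differences of 1.42 to 2.41 and of -2.03 to -1.33. Of the 16, 3 were targeted ERBSs and 7 others held an ERBS seed, and 0 held an Adjacent seed. Of the 9, 5 held an Adjacent seed and 0 an ERBS seed. The seeds of these called regions thus came from the gRNAs of the pool in which the region was higher, while 10 called regions away from the targets held none.

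The numbers of calls rest on few samples. The fit has 1 residual degree of freedom, from the Adjacent pair, and the lone ERBS and IL1RN samples are assumed to vary like it. The prior degrees of freedom that limma estimated were infinite, so 1 variance was used for all regions. Each region thus has the same SE of 0.37, and its own spread between lists does not enter its p-value. Calls were 68 and 87 without ERBS replicate 1, and 12 and 5 without ERBS replicate 2. Without an Adjacent replicate the ERBS lists had to enter as 2 replicates to leave a residual degree of freedom, which raised the SE from 0.37 to 0.49, and calls were 4 and 2 for either list left out, so that the effect of the list and of the spread cannot be told apart in these fits. Without centring, limma made 0 calls, with 1 region at an unadjusted p under 0.05 against 210 with centring.

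**Figure D5:**
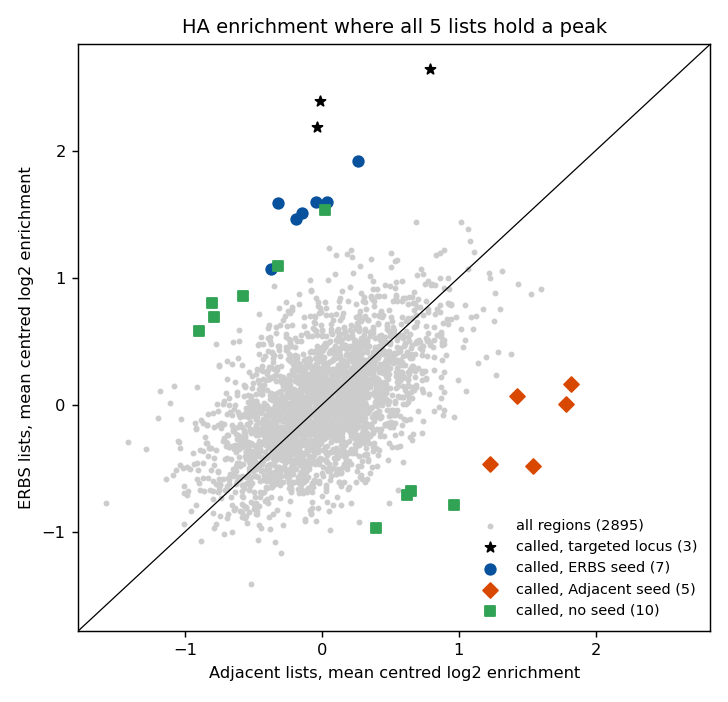
Mean centred log2 HA enrichment in the ERBS lists against that in the Adjacent lists, for the 2895 regions with a peak in all 5 lists (grey); the line marks equal values. Called regions above the line are targeted ERBSs (3 stars), hold an ERBS seed (7 circles) or no seed, and called regions below it hold an Adjacent seed (5 diamonds) or no seed.

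The differences toward ERBS gRNAs at targeted loci were those of HES2-1 (log2 difference 2.41 ± 0.37 (SE), limma adjusted p = 2.96e-07), HES2-3 (2.22 ± 0.37, adjusted p = 3.55e-06) and CISH-2 (1.85 ± 0.37, adjusted p = 0.000386), whose values in each list are given above. At HES2-3 the Adjacent and IL1RN values are those of peaks beside the gRNAs, not on them. CISH-2 was not called with quantile normalization (1.27, adjusted p = 0.0555) or in the fit without Adjacent replicate 1 (1.68, adjusted p = 0.126). Between HES2-3 and CISH-2 in size was the untargeted promoter of COQ10B, a coenzyme Q binding protein, with an enrichment of 16.6 and 105 in the ERBS lists, 6.02 and 16.6 in the Adjacent lists and 9.99 with IL1RN gRNAs. Its log2 difference was 1.91 ± 0.37 (limma adjusted p = 0.000214), and 1.87 in the fit without Adjacent replicate 1 (adjusted p = 0.0527). COQ10B held the seed of MMP17peak3_472.

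The region of PDE4DIP, a centrosome and Golgi anchoring protein, had 17.6 and 88.2 in the ERBS lists, 6.82 and 18.7 in the Adjacent lists and 12.8 with IL1RN gRNAs, and held the seed of FHL2peak1_691. Its log2 difference was 1.65 ± 0.37 (limma adjusted p = 0.00224), and it was not called without ERBS replicate 2 (1.29, adjusted p = 0.0718), Adjacent replicate 1 (1.62, adjusted p = 0.160) or Adjacent replicate 2 (1.69, adjusted p = 0.209). At HES2-1, HES2-3 and CISH-2 the raw ERBS values did not overlap those of the Adjacent lists, whereas at COQ10B and PDE4DIP the value of ERBS replicate 1 lay below that of Adjacent replicate 2.

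In the other direction, the region of CPNE8-AS1, in intron 1 of CPNE8, a calcium-dependent membrane-binding protein, had 5.79 and 17.0 in the ERBS lists, 21.2 and 62.6 in the Adjacent lists and 12.1 with IL1RN gRNAs. Its log2 difference was -2.03 ± 0.37 (limma adjusted p = 4.94e-05), and it stayed called without any single ERBS or Adjacent list. The region next to PRSS8, which encodes the protease prostasin, in exon 15 of PRSS36, had 9.32 and 20.7 against 22.0 and 84.3, with 10.0 for IL1RN gRNAs. Its difference was -1.78 ± 0.37 (limma adjusted p = 0.000794), and it was not called without Adjacent replicate 2 (adjusted p = 0.532). Both regions held the seed of mmp17_A_354.

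The promoter of POLR2H, a shared subunit of the RNA polymerases, had 7.07 and 14.2 in the ERBS lists, 15.9 and 53.6 in the Adjacent lists and 8.83 with IL1RN gRNAs, and held the seed of fhl2_A_100. Its difference was -1.70 ± 0.37 (limma adjusted p = 0.00183), with adjusted p = 0.0523 and 0.532 without Adjacent replicates 1 and 2. A region in intron 14 of NUMA1, a spindle protein, had 8.12 and 29.7 against 25.3 and 76.7, with 10.0 for IL1RN gRNAs, and held the seed of mmp17_A_354. Its difference was -1.66 ± 0.37 (limma adjusted p = 0.00224), with adjusted p = 0.0955 and 0.472 without Adjacent replicates 1 and 2.

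A region in intron 2 of HCN2, a cation channel, had 9.84 and 6.57 in the ERBS lists, 19.7 and 30.03 in the Adjacent lists and 14.0 with IL1RN gRNAs, and held no seed. Its difference of -1.75 ± 0.37 (limma adjusted p = 0.00107) was -2.84 without ERBS replicate 1 and -0.66 without ERBS replicate 2 (adjusted p = 0.831), so that this call rests on ERBS replicate 2. In the fit without Adjacent replicate 1 it was -1.36 (adjusted p = 0.477). The raw values of both pools did not overlap at CPNE8-AS1, PRSS8, POLR2H and HCN2, and overlapped at NUMA1.

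Of the regions in all 5 lists, 8 of the 10 of highest mean enrichment were at promoters. FAM193A had 13.2 and 51.4 in the ERBS lists, 20.2 and 70.6 in the Adjacent lists and 23.6 with IL1RN gRNAs. EEF1A1, a translation elongation factor, had 8.47 and 87.7, 8.65 and 53.0, and 11.2. VPS26A, a retromer subunit, had 18.8 and 38.1, 24.04 and 47.5, and 22.6. In these 3 examples the replicate 2 lists were the highest whatever the gRNAs. EEF1A1 was also the only region of these 10 with a peak in the dCas9-p300(core) lists.

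The other 7 were the promoters of PLCD1 (a phospholipase C), CERS5 (a ceramide synthase), NUDT16-DT, ZNF7 and COQ10B, and introns of ZMIZ1 (a coregulator of transcription) and of PIK3R5 (a regulatory subunit of phosphoinositide 3-kinase). ZMIZ1 was, with COQ10B, called toward ERBS gRNAs, with 27.3 and 100.1 in the ERBS lists, 8.01 and 28.1 in the Adjacent lists and 8.87 with IL1RN gRNAs. ZMIZ1 held the seed of CISHpeak3_199 and COQ10B that of MMP17peak3_472.

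Gene groups showed like counts in both pools. Of 72 cytosolic ribosomal protein genes, 23 and 67 had a promoter peak in the ERBS lists, 22 and 64 in the Adjacent lists and 42 in the IL1RN list, and 14 had one in all 5, among them FAU, RPL13 and RPS6. Of 15 immediate early genes, 9 and 14 had one with ERBS gRNAs and 7 and 14 with Adjacent gRNAs, and FOSL2 and JUNB were the genes of ERBS replicate 1 that Adjacent replicate 1 lacked. Of 12 heat shock genes these counts were 8 and 11, and 9 and 11. Over all 20149 protein-coding genes the shares were 22.9% and 66.7% in the ERBS lists, and 19.02% and 65.3% in the Adjacent lists. They were 31.9% in the IL1RN list and 13.4% in all 5 lists.

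Of 15 estrogen-responsive genes, the same 2 (MYC and STC2) had a promoter peak in both replicate 1 lists and the same 8 (PGR, XBP1, MYC, CCND1, IGFBP4, CTSD, NRIP1 and STC2) in both replicate 2 lists. The shares of 13.3% and 53.3% compare with 22.9% and 19.02% (replicate 1) and 66.7% and 65.3% (replicate 2) over all genes. MYC, which encodes a transcription factor of cell growth, was the gene with a peak in all 5 lists (6.67%, against 13.4% over all genes). Of 66 replication-dependent histone genes, 1 (H2BC6) had a peak in both replicate 1 lists, and 18 and 16 had one in replicate 2 of ERBS and of Adjacent, a lower share (27.3% and 24.2%) than over all genes. Of the 4 control promoters named in the study's methods, CTCF, SF3B4 and TRIM28 had a peak in all 5 lists and TBP in the replicate 2 lists alone. The gene lists were chosen with earlier results known, and the counts are a description.

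Marks that the peak overlap did not use were read in the same regions. Over the 10 H3K27ac libraries of dCas9-VP16(10x), the median share of regions with an H3K27ac peak was 8.16% of Adjacent-only, 45.9% of ERBS-only and 85.8% of all-5-list regions. Over the 10 RNAPII libraries, the median share with an RNA polymerase II peak was 9.18%, 42.6% and 92.6%. Over all off-locus regions the medians were 50.7% and 50.8%. ERBS-only regions as a whole were near these shares and Adjacent-only regions below them. The 19 ERBS-only regions with a seed were also below them, with medians of 21.1% (H3K27ac) and 15.8% (RNAPII). The 150 ERBS-only regions without a seed had 49.7% and 46.0%. The dCas9-p300(core) lists with ERBS gRNAs overlapped 0 of 49 and 0 of 169 of the pool-specific regions, 39 of 2891 regions in all 5 lists and 111 of 31922 off-locus regions.

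H3K27ac in Adjacent-only regions was compared between libraries. Peaks were found in 8 and 11 of the 49 regions in the libraries with Adjacent gRNAs, and in 0 to 5 in the 8 libraries with IL1RN, Pool 1, Pool 2 or Pool 3 gRNAs. The 0 was that of Pool 3 replicate 1, a short list of 5322 peaks. The Adjacent libraries also marked the largest shares of all off-locus regions, 57.0% and 70.4% against 10.9 to 54.9% in the others. Taken relative to this share in each library, the difference in Adjacent-only regions had an exact two-sided permutation p = 0.0222. That is the smallest that 2 libraries against 8 can give, and the Benjamini-Hochberg adjusted p was 0.0889 over 4 such tests. The adjusted value did not pass 0.05. In the 40 regions with a seed the counts were 6 and 6 against 0 to 4, while the relative shares overlapped (0.213 and 0.263 against 0 to 0.259, exact permutation p = 0.0667). The Adjacent libraries were also higher in regions of ERBS replicate 2 alone, where no Adjacent HA peak was found, with relative shares of 0.565 and 0.625 against 0.337 to 0.549 (exact permutation p = 0.0444, not adjusted), so the difference was not particular to Adjacent-only regions. The label of H3K27ac Adjacent replicate 1 also names IL1RN.

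RNAPII in Adjacent-only regions was found in 6 and 6 of 49 in the Adjacent libraries and in 1 to 6 in the others (exact permutation p = 0.0889, adjusted 0.178). In ERBS-only regions, the 6 libraries with Pool gRNAs and the 4 others did not separate for H3K27ac (exact permutation p = 0.376) or RNAPII (exact permutation p = 0.167, adjusted 0.222). Each Pool library carried gRNAs for 4 of the 12 ERBSs, whereas the HA ERBS lists come from cells with all 12.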

How the data were processed

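The members, lists and rules were chosen with earlier results of these data known. The authors aligned reads to hg19 with Bowtie 1.1.2, and the submitters' processing notes also name SAMtools, bedtools and MACS2 2.1.0.20140616. The authors deposited, for each peak, the fold enrichment over background (used as a ratio), the −log10 p-value and the summit, and a table of signal normalized for depth and control promoters. Peaks are listed per sample, with −log10 p of at least 10.0.

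Peaks of the 5 lists that overlapped by 1 bp were merged. Positions were read from GENCODE 44 on hg19. Designed gRNA sequences of the study were searched with pysam 0.24.0 on both strands. In each region the highest enrichment per list was taken as log2, centred on the list median and fitted with limma 3.58.1 (R 4.3.3), tested on simulated data first. Library comparisons of marks used exact permutation tests (SciPy 1.17.1). Named regions were the 23 of the table, the 10 of highest mean enrichment in each class and the 5 largest limma changes in each direction, each named by the nearest TSS or the gene it lies in. The epithelial and other markers, gene lists, stricter and shortened lists, other overlaps, seed lengths and windows, and leaving out each list served as checks and alternatives. Intervals cover counting error only. Peak lists of dCas9-p300(core), H3K27ac and RNAPII were used only to look up overlaps. IL1RN gRNA sequences were not analysed here.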

Additional observations from a re-analysis of the deposited data

How the results depend on the processing

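Under a required overlap of 0.5 of the shorter peak, the counts of pool-specific regions were 51 (Adjacent) and 165 (ERBS), and all 19 targeted loci kept a peak in each list of their own gRNAs. With a −log10 p of at least 20, ERBS-only regions were 109, the overlapped shares were 97.7% (Adjacent regions) and 96.2% (ERBS regions), and ERBS seeds were in 17.4%. With lists shortened to 4785 peaks, Adjacent-only and ERBS-only regions were 214 and 286, and the overlapped shares 85.7% and 85.1%. The seed shares were then 13.1% (Adjacent) and 11.2% (ERBS), so the pools hardly differed. A seed of 12 bases gave 26.5% (Adjacent) and 4.73% (ERBS), and a seed of 8 bases gave 20.7% (ERBS), against 0.166%, 0.182% and 6.81% of all off-locus regions. The stricter, shortened and left-out lists for seeds were chosen after seeing the data. Leaving out each list moved the Adjacent-only count from 49 to 2388, the ERBS-only count from 195 to 7532, the overlapped shares from 70.9 to 98.7% and from 56.2 to 96.3%, the seed shares from 6.32 to 81.6% and from 1.90 to 10.9%, and the limma calls from 4 to 68 (ERBS) and from 2 to 87 (Adjacent). The fits without an Adjacent list also took the ERBS lists as 2 replicates. Without centring, limma made 0 and 0 calls, with 1 at an unadjusted p under 0.05. With the replicate number as a replicate block, limma called 26 and 12 regions. The labels do not say that a number marks a shared culture, and the differences between replicates of both pools had r = 0.17 across 2895 regions. Quantile normalization, lists as 2 replicates, 4 lists and mean enrichment left 15 to 16 calls toward ERBS and 6 to 8 toward Adjacent gRNAs. A minimum enrichment of 5 removed none of the 2895 regions, so that fit repeats the main one and is no check. Of the log2 differences of named regions under all alternatives, 87 kept their call and 23 lost it, with no change of sign. The 87 include the unchanged values of the fit with a minimum enrichment of 5. The total depth of the libraries is not known, its part in the length of the lists was not tested, and the lack of a peak does not show the lack of HA.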
